A study of Mus musculus with 74 samples.

Results

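The long internal fragments of mt-TR, the mitochondrial tRNA for arginine, were examined in mouse lung. They were the sequences of at least 30 nt that matched mature mt-TR exactly and ended at position 68 or before, and so lacked the CCA end. Of the 500 mt-TR sequences counted, 107 were of this kind, and they held 665 of the 5606 mt-TR reads. Small RNA of untreated lung from healthy adult mice was sequenced in 74 libraries without end correction or demethylation. CC (C57BL/6J), HH (C3H/HeN) and FF (FVB/NJ) were wild-type strains, while HC, CH and CF were mitochondrial-nuclear exchange (MNX) strains, made by pronuclear transfer. The first letter of an MNX name gives the nuclear genome and the second the mtDNA, so that HC had C3H/HeN nuclei and C57BL/6J mtDNA. Each genotype had 6 libraries of each sex, apart from 7 of CH females and 7 of HC females. The labels divided the libraries into batch 1 (6 libraries, all of them HC or CH females), batch 2 (50) and batch 3 (18), without saying what a batch was. Intact RNA was pooled before sequencing, and the number of animals in a library is not given in the sources used here. P-values therefore measure the spread between these libraries, which may be technical in part. The counts covered mt-TR alone, so the label lung could not be checked against lung genes, and the series' own design text names liver.

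The depth was low and uneven. Libraries held 0 to 1280 mt-TR reads with a median of 35, and 3 libraries held none. HC male replicate 3 had 1280 reads, against at most 334 in any other library, and it supplied 157 of the 665 long internal reads (23.6%). Values without this library are given beside the results it bears on most. Every read matched the molecule of its library's own mtDNA type. That match is little check of the labels, because 486 of the 500 sequences occur in all 3 types, among them all 107 long internal fragments. The study's methods also describe mapping each library to its own type without mismatches, which would fix the match in advance.

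A tRNA is transcribed as a precursor, trimmed at both ends, given a CCA end and folded into a cloverleaf with an acceptor stem, a D arm, an anticodon arm and a T arm. Ribonucleases can cut the mature or precursor molecule, most often within the loops, and the products are called tRNA-derived fragments (tRFs). Fragments that lack both ends of the tRNA are internal tRFs. Mitochondrial tRNAs are encoded in mtDNA and serve mitochondrial translation, and in the mouse mt-TR carries a run of U and A in the D loop whose length differs between strains.

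The mature molecules of the 3 mtDNA types are shown because their only difference, the U and A runs, lies 5′ of or at the first bases of the fragments. The gene is annotated in GRCm38 as mt-Tr (ENSMUSG00000064361.1), without introns, at chrM:9808-9875 on the + strand. Letters are those of the DNA, as deposited. The capitals mark the anticodon TCG and, further 3′, the T loop TGATGT.
C mtDNA, 71 nt: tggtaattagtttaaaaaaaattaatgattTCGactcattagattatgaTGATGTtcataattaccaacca
F mtDNA, 72 nt: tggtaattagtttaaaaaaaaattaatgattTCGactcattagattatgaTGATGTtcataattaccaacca
H mtDNA, 73 nt: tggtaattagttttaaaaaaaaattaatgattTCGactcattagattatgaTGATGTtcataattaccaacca
C mtDNA had 3 U and 8 A (positions 11 to 13 and 14 to 21), F mtDNA 3 U and 9 A, and H mtDNA 4 U and 9 A. All positions below are in C numbering, with the first base of the C molecule as 1, and F and H are aligned to it from their 3′ ends. The elements were placed on the molecule by base pairing. The acceptor stem pairs 1 to 7 with 61 to 67, the anticodon stem 24 to 28 with 36 to 40, and the T stem 45 to 49 with 56 to 60. The anticodon loop spans 29 to 35 with the anticodon at 31 to 33, and the T loop spans 50 to 55.

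The fragments with the most reads show the 2 shapes that recurred. Each is named by its first and last position, and the capitals mark the bases that lie in the T loop.
24-53, 30 nt: aatgatttcgactcattagattatgaTGAT
25-56, 32 nt: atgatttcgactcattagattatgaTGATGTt
33-64, 32 nt: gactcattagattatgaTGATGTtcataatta
20-51, 32 nt: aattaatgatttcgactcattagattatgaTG
20-50, 31 nt: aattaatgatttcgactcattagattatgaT
24-54, 31 nt: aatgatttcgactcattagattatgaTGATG
19-48, 30 nt: aaattaatgatttcgactcattagattatg
23-52, 30 nt: taatgatttcgactcattagattatgaTGA
22-51, 30 nt: ttaatgatttcgactcattagattatgaTG
23-53, 31 nt: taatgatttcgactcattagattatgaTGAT
25-55, 31 nt: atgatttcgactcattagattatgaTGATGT
Of these 11, 10 began between the 3′ end of the D-loop A run and the first pairs of the anticodon stem, held the whole anticodon, and stopped in or beside the T loop. The exception, 33-64, began at the last base of the anticodon, held the whole T arm and stopped in the 3′ strand of the acceptor stem. The most read fragment, 24-53, lies at chrM:9831-9860 and 33-64 at chrM:9840-9871.

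Long internal fragments made up 11.9% of mt-TR reads pooled over the libraries (95% Wilson interval 11.0 to 12.7%), and 11.7% (508 of 4326 reads) without HC male replicate 3. The intervals cover counting error only. Among the 61 libraries with at least 10 mt-TR reads, the share ran from 0 to 40% with a median of 11.9% and a mean of 11.8% ± 7.32 (SD, n = 61). The library at 40%, FF male replicate 5, had 4 such reads of 10. In the library with the most reads, HC male replicate 3, the share was 12.3%, and in the next, HH female replicate 5, it was 11.4% (38 of 334 reads). Fragments of this kind were seen in 60 libraries. They were not seen in 6 libraries with at least 10 reads, the largest of which had 37 reads, where a count of 0 allows a share of up to 8.11%. This limit, and that for each count of 0 below, is 3 divided by the reads. The libraries came from whole tissue, so the number of cells that held a fragment and its amount per cell cannot be told apart.

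The reads were spread over many sequences. The 10 most read fragments held 260 reads (39.1%), 20 fragments had at least 10 reads, and 36 had 1 read. Of the 107 fragments, 40 were seen in 1 library and 11 in at least 10 libraries. Windows of 30 to 42 nt that start at 14 or later and end at 68 or before number 260, and 107 of them were seen. Most fragments overlap: 103 shared their start with another fragment of the class and 103 shared their end, so they are not independent of each other. Fragments 24-53 and 22-51 were the 2 seen in all 6 genotypes.

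Lengths crowded at the lower limit of the class. There were 169 reads of 30 nt, 161 of 31 nt, 147 of 32 nt, 64 of 33 nt and 54 of 34 nt, and 30 to 32 nt together made 71.7% of reads (477 of 665, 68.2 to 75.0%). At 36 nt or more there were 35 reads (5.26%). The limit itself did not coincide with a gap, since fragments of 28 and 29 nt that ended at 68 or before had 240 and 213 reads. The other limit lay in a sparse stretch: fragments of at least 30 nt had 8 reads ending at 68, 9 at 69, 22 at 70 and 22 at 71, the CCA terminus. The 3 longest fragments had 1 read each. They were 27-68 (42 nt) in CH female replicate 2, 25-64 (40 nt) in HC female replicate 6 and 22-60 (39 nt) in HC female replicate 4.

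The 5′ starts fell between 14 and 36, in 2 groups. Starts at 19 to 27, the end of the A run and the 5′ strand of the anticodon stem, held 512 reads (77.0%, 73.6 to 80.0%). Within them position 24, the first base of the anticodon stem, had 96 reads, position 25 had 83 and position 20 had 82. Starts at 31 to 36, in the anticodon and the bases just 3′ of it, held 127 reads (19.1%, 16.3 to 22.3%), of which 66 were at position 33, the last base of the anticodon. Between these groups, starts at 28 to 30 had 10 reads. Starts inside the A run, at 14 to 21, had 180 reads (27.1%), but no fragment included the U run, which ends at 13.

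Position 33 was a start chiefly of long fragments. Of all 120 mt-TR reads that started there, 66 (55%) were long and internal, against 96 of the 868 reads (11.1%) that started at 24. The next highest shares were 38.2% at 22 (58 of 152 reads) and 27.7% at 32 (28 of 101 reads). Fragments starting at 33 ended mostly at 64 (27 reads in 16 libraries), 66 (18 reads in 13 libraries) and 63 (16 reads in 8 libraries). Those 3 ends lie in the acceptor stem.

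The 3′ ends fell between 45 and 68, again in 2 groups. The T loop, positions 50 to 55, held 369 of the 665 ends (55.5%, 51.7 to 59.2%), from 34 fragments in 54 libraries. Every position of the loop was used. There were 42 ends at position 50, 66 at 51, 58 at 52, 84 at 53, 75 at 54 and 44 at 55. The flanking bases also carried ends, with 40 reads at 48 or 49, in the 5′ strand of the T stem, and 94 at 56 or 57, in its 3′ strand. The ends thus formed a cluster from 48 to 57 (503 reads, 75.6%) with its highest count at 53. Ends at 58 to 60 had 10 reads. Ends at 61 to 68, in the acceptor stem and the discriminator base beside it, had 150 reads (22.6%, 19.5 to 25.9%), led by 64 with 44 and 66 with 35.

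The class was rich in T-loop ends beside the shorter internal fragments, a description for which no test was made because the length limit and the end are linked. Of the 3870 reads of shorter internal fragments, 25.1% ended in the T loop, but this depended on where they began. The share was 3.70% for starts at 23 or before (1432 reads), 14.8% for a start at 24 (772 reads), 53.6% for starts at 25 to 31 (1205 reads) and 34.3% for starts at 32 or later (461 reads). At position 64 nearly all ends belonged to long internal fragments, 44 of 47 reads (93.6%).

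Joined by their 2 ends, most reads fell into 2 families. They were set after the values were seen, and no test was made on them. Fragments with a start at 19 to 27 and an end at 48 to 57 (the anticodon family) numbered 49 and held 489 reads (73.5%) in 56 libraries. They carry the anticodon and, apart from those ending at 48, the whole 5′ strand of the T stem. Fragments with a start at 31 to 36 and an end at 61 to 68 (the T-arm family) numbered 30 and held 126 reads (18.9%) in 37 libraries. They lack all or part of the anticodon in most cases and carry the whole T arm. Their median length over reads was 32 nt, against 31 nt for the anticodon family, so the T-arm family was displaced along the molecule rather than longer. Both were present in 33 libraries, and 28 fragments with 50 reads belonged to neither.

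Counted over all 665 reads, the whole anticodon was present in 557 (83.8%, 80.8 to 86.4%) and the whole anticodon arm in 396 (59.5%). In 382 reads (57.4%) the 5′ strand of the T stem was whole and its 3′ strand was absent, so the stem could not pair within the fragment. The whole T arm was present in 155 (23.3%). The first base was A in 54.9% of reads, U in 24.1%, G in 16.2% and C in 4.81%, where the molecule from 14 to 36 has 52.2% A and 30.4% U. The last base was U in 41.1%, G in 25.3%, A in 21.8% and C in 11.9%, where the molecule from 45 to 68 has 37.5% U and 12.5% G. The last-base share of G follows the ends at 51 and 54, the G bases of the loop.

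The most read fragments were each spread thinly. In the median library every one of them had 0 reads. Fragment 24-53 had 48 reads in 20 libraries: 12 in HC male replicate 3, 4 in HC female replicate 5, 3 in each of HH female replicates 2 and 6, FF female replicate 5, CH male replicate 1 and CF male replicate 5, and 1 or 2 in each of the other 13. It was seen with every mtDNA type, at 27 of 3072 mt-TR reads with C mtDNA (0.879%), 10 of 861 with F (1.16%) and 11 of 1673 with H (0.658%).

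Fragment 25-56, which spans the whole anticodon loop and T loop, had 29 reads in 11 libraries, with 9 in HC male replicate 3, 4 in HH female replicate 5, 3 in each of CF male replicate 3 and FF male replicate 5, and 1 or 2 in each of the others. Its shares were 0.488% with C mtDNA, 0.813% with F and 0.418% with H, and that with C was 0.335% without HC male replicate 3. Fragments 20-51 and 20-50, which begin within the A run, had 26 reads in 14 libraries and 24 reads in 9. HC male replicate 3 held 7 of the 26 and 10 of the 24, while no other library held more than 3 of 20-51 or 4 of 20-50. With F mtDNA there was 1 read of 20-51 (0.116%), against 20 with C (0.651%) and 5 with H (0.299%).

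Fragment 22-51 had the opposite order. It had 10 reads with F mtDNA (1.16%), in 7 libraries holding 1 or 2 each, 6 with C (0.195%) and 4 with H (0.239%). Only 2 of its 20 reads came from HC male replicate 3. Fragment 19-48, which stops in the T stem before the loop, had 13 reads with C mtDNA and 9 with H but none with F, where a count of 0 in 861 reads allows up to 0.348%. Fragments 24-54, 23-52 and 23-53 had 23, 21 and 20 reads in 10 libraries each, and 7, 8 and 3 of these were in HC male replicate 3. Fragment 25-55 ended at the last base of the loop and had 20 reads in 7 libraries, of which HH male replicate 5 held 7 and HC male replicate 3 held 5.

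Fragment 33-64 was the most read of the T-arm family and the third most read of the class. It had 27 reads in 16 libraries, with 5 in HC female replicate 1, 3 in each of HH female replicate 5 and CH male replicate 2, and 1 or 2 in each of the other 13. HC male replicate 3 had 0. Females held 22 of the reads, in 13 libraries, and males 5, in 3 libraries. Across mtDNA types its shares were 0.456% with C, 0.465% with F and 0.538% with H, and the C share was 0.781% (14 of 1792 reads) without HC male replicate 3.

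The mtDNA types were compared for the share of long internal fragments, since the runs in the D loop differ between them. In libraries with at least 10 reads the mean share was 12.1% ± 5.73 with C mtDNA (SD, n = 21), 10.2% ± 9.01 with F (n = 20) and 13.0% ± 7.03 with H (n = 20). The ranges overlapped, from 0 to 22.9% with C, 0 to 40% with F and 2.62 to 25% with H. The spread between the means was 2.80 percentage points. Spreads at least as large were common when labels were exchanged within sex and batch (permutation p = 0.456, 2-sided). Adjusted over the 10 comparisons of the share, the permutation p was 0.873. Without FF male replicate 5 the spread was 4.36 points (permutation p = 0.085, adjusted p = 0.355). The mean length of the fragments, in libraries with at least 3 of them, was 32.1 nt ± 0.983 with C (n = 18), 31.5 nt ± 0.875 with F (n = 16) and 32.2 nt ± 1.15 with H (n = 16), and the spread of 0.658 nt had a permutation p of 0.149.

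By genotype the lowest, median and highest shares were 0, 12.3 and 22.9% in CC, 5.56, 10.6 and 20.4% in CF, 2.62, 9.82 and 23.1% in CH, 0, 4.17 and 40% in FF, 5.46, 12.3 and 18.1% in HC and 6.38, 15.8 and 25% in HH. All 6 ranges overlapped. For pairs that differ in 1 genome, the libraries were compared by exact 2-sided permutation tests within sex and batch, which use only the sexes and batches where both genotypes had libraries. CH and CC share a batch in males alone, where the share was 14.5% ± 6.66 in CH (n = 6) and 11.3% ± 7.32 in CC (n = 5), a difference of 3.20 points (exact p = 0.548). The CH females were at 7.54% ± 4.60 (n = 6) and the CC females, all in another batch, at 11.7% ± 8.11 (n = 5). On the same C57BL/6J nuclear background, the difference between CF and CC was -0.711 points (exact p = 0.867), and it turned to 0.549 points without CC female replicate 6 and 0.0992 points without CC male replicate 4. On the C3H/HeN background HH was 3.59 points above HC (16.3% ± 7.53, n = 7, and 12.7% ± 3.58, n = 8; exact p = 0.142, adjusted p = 0.708).

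With the mtDNA held fixed and the nucleus exchanged, the differences were of like size. HC was 1.16 points above CC (exact p = 0.677), HH was 3.37 points above CH (exact p = 0.508) and the difference of FF from CF was -1.64 points (exact p = 0.791). Adjusted p was 0.873 for each of these 3 and for CH and CF against CC. FF rested on FF male replicate 5, the library at 40% from 10 reads, without which the means were 4.87% in FF (n = 7) and 10.9% in CF (n = 12), a difference of -6.03 points (exact p = 0.0282, adjusted p = 0.282). HC against CC turned to -0.12 points without CC female replicate 4 and equally without CC male replicate 3, and HH against CH to -0.0104 points without HH male replicate 3. None of the 6 genotype differences passed the threshold. HH against HC turned to -0.272 points when libraries under 20 reads were left out, and CH against CC to -8.12 points.

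In the combinations of genotype and batch that held both sexes, males had a higher mean share than females, 13.8% ± 8.66 (n = 22) and 10.8% ± 6.76 (n = 27). The plain difference of 2.94 points did not pass the threshold (exact p = 0.12, adjusted p = 0.708). With genotype and batch as terms of a least-squares fit it was 3.76 points. Without FF male replicate 5 the plain difference was 1.69 points (exact p = 0.142). For batches 3 and 2, in the combinations of genotype and sex held by both, the means were 12.5% ± 10.5 (n = 13) and 12.0% ± 6.57 (n = 30). The plain difference was 0.523 points (exact p = 0.873). With genotype and sex as terms of a least-squares fit it was -0.540 points, so the sign depended on the weighting. The sign of the plain difference also rested on single libraries. It was -1.77 points without FF male replicate 5, -0.358 without CH male replicate 6 and -0.0553 without CF female replicate 6. Batch 1 shares a genotype and sex with batch 2 in HC females alone. There the means were 12.7% ± 6.37 (n = 3) and 14.2% ± 4.04 (n = 4), with an exact p of 0.714, and the difference of -1.49 points turned to 2.12 points without HC female replicate 3. Pooled over reads, the shares were 9.31% in batch 1, 12.4% in batch 2 and 12.4% in batch 3.

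Fragments ending in the T loop were compared in the same way, as a share of all mt-TR reads. The means were 5.72% ± 3.36 with C mtDNA, 6.52% ± 4.50 with F and 7.21% ± 7.10 with H (n = 21, 20 and 20), a spread of 1.49 points (permutation p = 0.639, adjusted over 3 comparisons p = 0.695). The difference between males and females was 0.685 points (exact p = 0.459) and that between batches 3 and 2 was 0.633 points (exact p = 0.695). Within the long internal reads, T-loop ends made up 54.7% with C mtDNA (49.8 to 59.6%), 63.3% with F (53.0 to 72.6%) and 53.3% with H (46.1 to 60.3%), and 50% with C without HC male replicate 3. The ends were at the same positions of the C numbering in all 3 types. Position 53 led with C (48 of 391 reads) and with F (17 of 90), and position 54 with H (21 of 184, with 19 at 53).

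Starts also overlapped between mtDNA types. Position 24 led with C mtDNA (64 of 391 reads), position 25 with F (15 of 90) and position 33 with H (24 of 184). Of the H reads from position 33, 20 came from CH libraries. Starts inside the A run made up 28.1% of reads with C (23.9 to 32.8%), 14.4% with F (8.6 to 23.2%) and 31% with H (24.7 to 38.0%). Without a test these shares are descriptions, and the C value was 21.8% (51 of 234) without HC male replicate 3.

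The T-arm family was unevenly spread over libraries. It made up 29.5% of long internal reads in females (89 of 302) and 10.2% in males (37 of 363), and 37.4% in batch 1 (34 of 91), 18.2% in batch 2 (83 of 457) and 7.69% in batch 3 (9 of 117). HC male replicate 3 weighs on both contrasts, since 2 of its 157 reads (1.27%) were of this family, and without it males were at 17.0% (35 of 206) and batch 2 at 27%. Within batch 2, females were at 31% (53 of 171) and males at 10.5% (30 of 286), or 21.7% (28 of 129) without HC male replicate 3. Within batch 3, females were at 5.00% (2 of 40) and males at 9.09% (7 of 77). Batch 1 held females only. Pooled over reads, the higher female share was thus seen in batch 2 and not in batch 3, and it was not tested. CC females supplied 27 of the 53 female reads in batch 2. As a share of mt-TR reads per library with at least 10 reads, the family's batch 2 median was 1.79% in females. In males it was 1.61% without HC male replicate 3.

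By genotype the T-arm family was at 40% of long internal reads in CH (28 of 70), 30.2% in CC (29 of 96), 23.3% in CF (17 of 73), 17.6% in FF (3 of 17), 13.9% in HC (41 of 295) and 7.02% in HH (8 of 114). Without HC male replicate 3, HC was at 28.3% (39 of 138). Of the 28 CH reads, 17 came from females, all in batch 1, which held only HC and CH females. CH males were at 30.6% (11 of 36). Genotype and batch were thus not separated in these values. By mtDNA type the values were 17.9% with C, 22.2% with F and 19.6% with H, and C was at 29.1% (68 of 234) without HC male replicate 3, which turned it from the lowest to the highest of the 3. As a share of all mt-TR reads per library, the family had a median of 1.01% and ran from 0 to 16.7% (HH male replicate 3, 2 of 12 reads), while the anticodon family had a median of 7.46% and ran from 0 to 30%. The whole anticodon was present in 73.2% of long internal reads in females and 92.6% in males, or 87.9% (181 of 206) in males without HC male replicate 3.

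Single fragments were compared with edgeR's quasi-likelihood test over all 500 sequences, with Benjamini-Hochberg adjustment. Its scaling factors for library size (TMM) ran from 0.0864 to 55.3, so the fitted values and their directions lean on this scaling. At an adjusted p under 0.05 the test called 0% of sequences in 6 of the 7 comparisons (CH and CF against CC, HH against HC, HC against CC, HH against CH, males against females) and 0.2% in FF against CF. The sequence called there was a 17-nt fragment, 24-40, and none of the 107 long internal fragments was called in any comparison. DESeq2 called 0 sequences in all 7, and 0 to 4 at an unadjusted p under 0.05, none of them a long internal fragment.

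At an unadjusted p under 0.05, edgeR called 6.4% of all sequences in CH against CC, and 9 of the 107 long internal fragments, of which 8 had lower fitted values in CH. In HH against CH it called 10.2% of sequences and 9 of the fragments, of which 8 had higher fitted values in HH. These 2 comparisons share the CH libraries. CH females were all in batches 1 and 3 and CC females all in batch 2, so the female part leans on the fitted batch terms. With batch 2 alone, where CH had males only, 3 of 99 fragments were called in CH against CC and 0 of 99 in HH against CH. Of all 442 sequences in that fit, 14 and 2 were called. With library size alone in place of TMM, 7 were called in CH against CC, 6 of them lower in CH. In HH against CH 6 were called, 4 higher in HH and 2 lower. Of all 500 sequences, library size alone called 29 in CH against CC and 31 in HH against CH. The counts behind such calls were small, and no fold is given where a genotype had no read. Fragment 25-56 had 7 reads in 3 HH libraries (0.810% of 864 mt-TR reads), 2 reads in 1 CC library (0.307% of 652) and none in CH, where 809 reads allow up to 0.371% (HH against CH, adjusted p = 0.104; CH against CC, adjusted p = 1). Fragment 20-51 had 5 reads in 4 HH libraries, 2 reads in 2 CC libraries and none in CH (adjusted p = 0.131 and 0.602). The CC value of both fragments lies under what a count of 0 allows in CH.

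In FF against CF 8.6% of sequences were called at the unadjusted threshold, and 4 of the fragments, all with lower fitted values in FF. With library size alone in place of TMM, 7 of the 500 sequences and 0 of the 107 fragments were called. FF had the fewest reads, 177, in which a count of 0 allows a share of up to 1.69%. Fragment 22-51 had 9 reads in 6 CF libraries (1.32% of 684) and 1 read in FF (0.565%, adjusted p = 0.181). Fragments 23-53, 20-50 and 23-54 had 5, 4 and 3 reads in CF and none in FF (adjusted p = 0.166, 0.334 and 0.354). The CF shares of all 4 lay under the FF limit.

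The other comparisons had 3 such fragments or fewer. CF against CC had 3, with 4.2% of all sequences, among them 22-51 with 9 reads in CF and 1 in CC (adjusted p = 0.642). HH against HC had 3, with 4.2%. HC against CC had 3, with 6.4%, among them 24-53 with 23 reads in HC (0.95% of 2420) and 4 in CC (0.613%, adjusted p = 0.515), and HC male replicate 3 held 12 of the 23. Males against females had none, with 0.4% of sequences, and there 33-64, with 22 reads in females and 5 in males, had an adjusted p of 1. The share of the 107 fragments past the unadjusted threshold was above that of all sequences in CH against CC and below it in the other 6 comparisons.

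With the 153 sequences of at least 10 reads alone in the fit, 20 of them long internal fragments, 3 fragments passed the adjusted threshold. They were 25-56 in HH against CH (edgeR adjusted p = 0.0489), and 22-51 (adjusted p = 0.0386) and 23-53 (adjusted p = 0.0354) in FF against CF. The FF reads behind the last 2 calls were 1 and 0 of 177. In this fit edgeR called 12 of the 153 sequences in HH against CH and 18 in FF against CF.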

How the data were processed

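The authors deposited raw counts of reads for every distinct mt-TR sequence in 74 lung libraries. Libraries were prepared with a single-adapter circularization protocol. As the study's methods describe, reads were trimmed with cutadapt 5.0, processed with UMI-tools 1.1.6, and mapped with Bowtie 1.3.1 to mature mt-TR of the library's own type without mismatches, leaving out reads that map elsewhere in mm10. The methods leave unsaid which of these steps the lung reads went through, and 9 sequences are under 16 nt. Total depth is unknown, so shares are of mt-TR reads (0 to 1280 per library, median 35).

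Fragments were located by exact match. F and H molecules were taken from the study's aligned sequences. The members, families and gene elements were chosen with earlier results of these data known. Shares used 1 value per library with at least 10 reads and 2-sided permutation tests within sex and batch, exact or with 100000 resamples (Python 3.11.15, scipy 1.17.1). Differences in share are between plain means, not adjusted for sex, batch or genotype unless stated. The p-value counts permuted differences at least as far from their own mean as the observed one. Single sequences were tested with edgeR 4.0.16 (TMM, no filter, 12 groups of genotype and sex, with batch) in R 4.3.3, and with DESeq2 1.42.0 as an alternative. The code was tested on simulated data. Fragments named were the 10 with the most reads, the most read at each T-loop end, the 3 longest, and any past the edgeR threshold. Fragments 23-54 and 24-40 were named after their values were seen. Alternatives were other limits of reads and length, distinct sequences, pooled reads, no strata, batch 2 alone, other normalization and a replicate block. For the share, each library was also left out in turn, which for all but batch 1 against batch 2 was chosen after seeing the data.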

Additional observations from a re-analysis of the deposited data

Results flagged for a closer look

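Libraries that stood apart from the rest of their genotype and sex were sought among groups of 4 to 10 libraries, by the gap to the nearest library relative to the range (Dixon's criterion). Of 22 combinations of a group and a measure, 3 stood apart. This count cannot be set against the criterion's chance rate of about 1 in 20, which assumes continuous values. The shares rest on few reads and are equal in some libraries. Where all other libraries of a group are equal, any different value is flagged. The measures also overlap, since reads ending in the T loop are part of the long internal reads.

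FF female replicate 5 had a long internal share of 16.7% and a T-loop-ending share of 16.7%, both from the same 3 of 18 reads, all of them of fragment 24-53, while the other 3 FF female libraries with at least 10 reads were at 0. FF male replicate 6 had a T-loop-ending share of 0% in 37 reads, while the other 3 FF male libraries were at 8.33 to 10.0%. A count of 0 in 37 reads allows a share of up to 8.11%.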

How the results depend on the processing

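Low depth limits these results: the differences in share rest on few reads per library, and no alternative brought a difference in share past the threshold (lowest adjusted p = 0.188 over 91 alternatives, of which 76 kept their direction, and 0.282 with each library left out). The 76 include the spreads between mtDNA types, which are never negative and so could not reverse. The cause of the reversals was not tested. With libraries of at least 1 read, CF against CC was 1.21 points, HH against HC -4.47 and FF against CF 6.06. With at least 20 reads, CH against CC was -8.12, HH against HC -0.272, HC against CC -2.33, HH against CH -1.71 and batch 3 against batch 2 -0.0105, while FF against CF widened to -6.64 (unadjusted exact p = 0.0222) and CF against CC to -4.16 (unadjusted exact p = 0.0376), with an adjusted p of 0.188 for both. With reads pooled, CH against CC was -4.21 and HC against CC -2.84. CF against CC was 1.1 with fragments of at least 28 nt and 1.90 with distinct sequences. Without strata, CH against CC was -0.496 and batch 3 against batch 2 -0.482. Leaving out each library in turn, batch 1 against batch 2 ran from -3.90 to 2.12, CF against CC from -1.99 to 0.549, HC against CC from -0.12 to 2.42, HH against CH from -0.0104 to 6.49 and batch 3 against batch 2 from -1.77 to 1.56, and the other 5 comparisons kept their direction. Of these 5, the spread between mtDNA types could not reverse. None of the 18 alternatives of the T-loop-ending share reversed. Those by mtDNA type, and all 5 of length, are spreads between means, which could not reverse.

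The count of sequences called by edgeR was 12 in HH against CH and 18 in FF against CF with sequences of at least 10 reads. For FF against CF it was 3 with library size alone, 0 with DESeq2, 0 in batch 2 alone and 2 without HC male replicate 3, where HH against HC had 1. The edgeR filter on low counts left 0 sequences and was not run.

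Correlations of same-numbered libraries ran from -0.584 to 0.439, over 7 to 10 pairs in a comparison. These are too few to tell whether replicate numbers in the labels pair the libraries. With a replicate block, CH against CC was 0.690 points, HH against HC 4.15 and males against females 3.82 (unadjusted exact p = 0.0398, adjusted p = 0.398), no call changed, and edgeR called 1 sequence in FF against CF and 0 elsewhere.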
